A study of Mus musculus with 20 samples.

Results

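The 8 genes described here are Pparg, which encodes the nuclear receptor PPARγ, and 7 genes of fatty acid and lipoprotein uptake, fatty acid binding and triacylglycerol synthesis that are linked to PPARγ in fatty liver. They are Cd36, Slc27a1, Slc27a4, Vldlr, Fabp2, Fabp4 and Mogat1. They were chosen by name among the 55385 genes of the deposited table, without a threshold on any measured value, and all 8 were among the 18905 genes with enough counts to be tested. Liver lipid was not analysed here.

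Positions are those of the deposited table, whose coordinates match build GRCm38. Pparg (ENSMUSG00000000440) lies at chr6:115360951-115490399, Cd36 (ENSMUSG00000002944) at chr5:17781690-17888801 and Vldlr (ENSMUSG00000024924) at chr19:27216484-27254231. Slc27a1 (ENSMUSG00000031808) lies at chr8:71568882-71587301 and Slc27a4 (ENSMUSG00000059316) at chr2:29802634-29817522. Fabp2 (ENSMUSG00000023057) and Fabp4 (ENSMUSG00000062515) share chromosome 3, at chr3:122895072-122899506 and chr3:10204088-10208576, and Mogat1 (ENSMUSG00000012187) lies at chr1:78510991-78538173. Cd36 and Fabp4 are on the minus strand and the other 6 on the plus strand.

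RNA was sequenced from mouse liver, labelled as week 24, in 4 groups of 5 libraries. These were wild-type (WT) mice fed chow, WT mice fed a high-fat diet (HFD), and mice labelled LXRα-/- on chow or on HFD. A second label field calls the same LXRα-/- animals a knockdown of LXR. The labels used here give no strain, sex, allele, promoter or batch, and do not say which animal stands behind each library, so the tests reflect how far libraries of a group vary, which may be technical.

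PPARγ binds DNA as a pair with a retinoid X receptor (RXR) and is switched on by fatty acids and their derivatives. It is best known as the master regulator of fat cells, and it is scarce in healthy hepatocytes. In mice its abundance in hepatocytes rises in many models of fatty liver, where genes of lipid uptake and storage are known to follow it. LXRα, the product of Nr1h3, is an oxysterol receptor that also pairs with RXR.

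The site that PPARγ and RXR recognise is a direct repeat of AGGTCA with 1 base between the copies, called DR1. RefSeq promoters (build GRCm38.p6, a window mostly upstream of each start) matched 7 of the 8 genes, and Fabp4 was not matched. They were searched on both strands for this repeat with at most 2 mismatches, which 3.86% of 32851 promoters of the same length hold. Of the genes matched, Cd36 and Mogat1 held such a match, and the capitals mark it together with a single AGGTCA in Cd36. Fabp2, the most abundant of the genes, is shown for contrast and held none.
Cd36, chr5:17835847-17836146, minus strand: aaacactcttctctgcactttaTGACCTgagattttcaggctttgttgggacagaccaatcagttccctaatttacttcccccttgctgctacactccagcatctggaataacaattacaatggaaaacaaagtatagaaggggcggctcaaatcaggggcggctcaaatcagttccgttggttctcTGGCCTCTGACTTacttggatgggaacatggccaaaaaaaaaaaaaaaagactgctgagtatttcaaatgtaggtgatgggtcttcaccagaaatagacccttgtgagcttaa
Mogat1, chr1:78510810-78511109, plus strand: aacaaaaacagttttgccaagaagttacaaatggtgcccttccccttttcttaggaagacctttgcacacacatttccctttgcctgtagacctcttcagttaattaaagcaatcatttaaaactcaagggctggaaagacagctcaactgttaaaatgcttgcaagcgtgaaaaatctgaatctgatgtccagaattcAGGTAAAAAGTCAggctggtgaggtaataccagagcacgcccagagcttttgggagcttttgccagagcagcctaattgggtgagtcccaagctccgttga
Fabp2, chr3:122894822-122895121, plus strand: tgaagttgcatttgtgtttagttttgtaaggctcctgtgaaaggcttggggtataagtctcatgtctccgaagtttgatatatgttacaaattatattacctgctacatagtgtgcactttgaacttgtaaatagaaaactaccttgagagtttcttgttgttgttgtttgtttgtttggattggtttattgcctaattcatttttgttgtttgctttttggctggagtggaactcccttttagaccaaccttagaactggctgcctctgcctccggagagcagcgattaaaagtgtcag
In Cd36 the match TGGCCTCTGACTT lay on the opposite strand at -63 to -51 from the start, and the single AGGTCA, read as TGACCT, lay at -228 to -223. In Mogat1 the match AGGTAAAAAGTCA lay at -51 to -39. A single AGGTCA, which may lie inside either repeat and which 16.26% of promoters hold, was also found in promoters 1 and 2 of the 3 listed for Pparg. The DR4 repeat of LXR, AGGTCA copied after a gap of 4 bases, was searched in the same way. It was in 3.023% of promoters and in none of these genes' promoters. These are matches of letters, and binding was not measured. The Cd36 promoter searched lies inside the gene span given above. Its positions therefore count from an internal start, not from the outer end at chr5:17888801.

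Expression was read as counts per gene and as FPKM, which corrects for a gene's length and for depth, and the libraries held between 75549139 and 108889938 counts. Nr1h3 did not follow the label, with 39.1 ± 4.88 FPKM in WT chow, 19.1 ± 3.79 in WT HFD, 47.9 ± 23.4 in LXRα-/- chow and 59.9 ± 27.9 in LXRα-/- HFD (mean ± SD, n = 5). Library 4 of LXRα-/- chow and library 2 of LXRα-/- HFD were low, at 7.89 and 10.3 FPKM, while the other 8 libraries labelled LXRα-/- had 46.6 to 77.2 FPKM, above every WT library (at most 45.3 FPKM). Directions below therefore refer to libraries labelled LXRα-/-. The share of mitochondrial counts was 3.89% to 5.67% in WT chow and at least 9.77% in each of the other 15 libraries. WT chow also stood apart on the first principal component, which held 30.3% of the variance. The clock level, a log2 ratio of Arntl plus Npas2, which peak together, to Per3 and Dbp, which peak at the opposite time, was -6.56 to -4.70 in WT chow and -3.97 to 0.53 in WT HFD. It was -5.64 to -1.38 in LXRα-/- chow, and in LXRα-/- HFD it was -1.28 in library 3 and -7.19 to -5.94 in the other 4. Hepatocyte markers such as Alb were present in all 20 libraries, although the protocol text speaks of an adipose type of RNA.

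Per unit of length, Fabp2 was the most abundant of the 8 genes, with a median of 44.4 FPKM over the 20 libraries. Slc27a4 followed with a median of 5.62 FPKM and Pparg with 2.40 FPKM. Slc27a1, Mogat1 and Cd36 lay close together at medians of 1.28, 1.14 and 1.11 FPKM. Fabp4 had 0.772 FPKM and Vldlr 0.119 FPKM, the lowest values by this measure. In GENCODE M21 the exons of Fabp4 merge into 1 block of 4489 bases, the whole span of the gene. If the FPKM used that length, a shorter spliced RNA would be understated, so the rank of Fabp4 is uncertain.

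**Figure D1:**
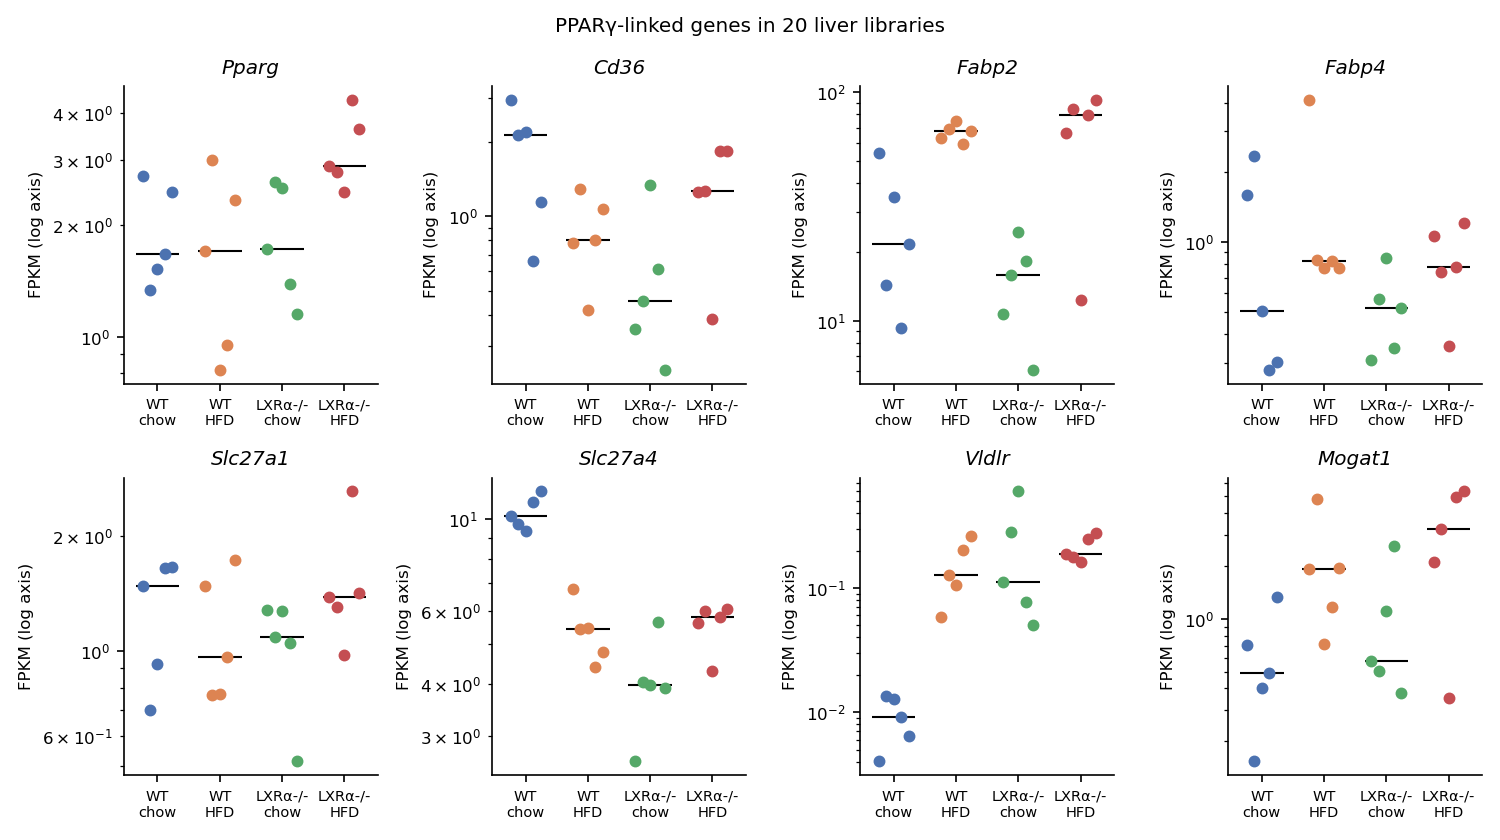
FPKM (log axis) of the 8 genes in each of the 20 libraries by group, where points are libraries and lines are group medians. WT chow libraries lie apart for Slc27a4, at 9.36 to 11.7 FPKM, and for Vldlr, at 0.00401 to 0.0134 FPKM, while one WT HFD library stands out for Fabp4 at 4.12 FPKM.

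Pparg RNA was 2.72, 1.34, 1.53, 1.67 and 2.46 FPKM in the WT chow libraries and 1.70, 3.0, 0.816, 0.956 and 2.34 FPKM in WT HFD. It was 1.73, 2.62, 2.52, 1.39 and 1.15 FPKM in LXRα-/- chow and 2.89, 2.78, 2.46, 4.36 and 3.64 FPKM in LXRα-/- HFD. The last group had the highest median, and its values overlapped those of every other group. The receptor's RNA passed no test. The log2 difference between genotypes was -0.09 on chow (95% confidence interval -0.78 to 0.60, edgeR adjusted p = 0.843) and 0.64 on HFD (-0.06 to 1.33, adjusted p = 0.395). HFD against chow gave -0.06 in WT (-0.75 to 0.63, adjusted p = 0.912) and 0.67 in LXRα-/- (-0.03 to 1.36, adjusted p = 0.760). The deposited counts are per gene, so the Pparg isoforms, which start at different promoters, were not separated.

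Cd36, a scavenger receptor that brings long-chain fatty acids into cells, was lower in LXRα-/- than in WT on chow. It had 2.95, 2.12, 2.19, 0.662 and 1.14 FPKM in WT chow and 0.352, 0.455, 1.33, 0.614 and 0.240 FPKM in LXRα-/- chow, and the 2 groups overlapped. The fall was 3.01-fold (log2 difference -1.59, SE 0.48, edgeR adjusted p = 0.0108). On HFD it had 0.779, 1.29, 0.419, 0.799 and 1.07 FPKM in WT and 1.25, 1.27, 0.387, 1.82 and 1.83 FPKM in LXRα-/-. There the log2 difference was 0.37 (-0.60 to 1.34, adjusted p = 0.778). The 2 genotype differences differed from each other by 1.96 on the log2 scale (SE 0.66, adjusted p = 0.0437 for the interaction). That call was lost in 15 of the 20 fits that left out 1 library, where the adjusted p ran from 0.00976 to 0.0847. It remained without WT chow 4, WT chow 5, WT HFD 2, LXRα-/- chow 3 or LXRα-/- HFD 3. With the clock level as a covariate the difference was 0.72 (adjusted p = 0.780), and with the mitochondrial share as a covariate the difference on chow was -1.90 (adjusted p = 0.926). Within WT the HFD libraries differed from chow by -0.94 (-1.92 to 0.03, adjusted p = 0.142), and within LXRα-/- by 1.02 (0.03 to 2.0, adjusted p = 0.725).

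Cd36 is also made by endothelial cells and macrophages, whose markers moved on chow. In RNA from whole tissue, fewer cells of a type and less RNA per cell cannot be told apart. Kupffer cell markers summed to 89.8 to 140 FPKM in WT chow and 20.4 to 41.5 FPKM in LXRα-/- chow, and 8 of 8 fell. Endothelial markers summed to 40.4 to 66.1 FPKM and 20.2 to 28.4 FPKM in the same groups, and 5 of 11 tested fell, among them Aqp1, Cdh5 and Kdr. Of 9 recruited macrophage markers, 4 rose and 1 fell, with a median log2 difference of 0.60. In the same comparison 43.4% of all genes passed, 22.3% upward and 21% downward. On HFD, where Cd36 differed by 0.37, Kupffer cell markers summed to 40.6 to 59.3 FPKM in WT and 15.8 to 25.9 FPKM in LXRα-/-. There 4 of the 8 fell between genotypes, where 0.455% of all genes passed. Of 11 endothelial markers tested 0 passed on HFD, and of 9 recruited macrophage markers 1 rose. The part of these cells in the fall of Cd36 on chow was not tested.

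Slc27a4, the fatty acid transport protein FATP4 with acyl-CoA synthetase activity, separated WT chow from every other library. It had 10.1, 9.71, 9.36, 10.9 and 11.7 FPKM in WT chow, against 2.60, 4.03, 3.98, 5.63 and 3.90 FPKM in LXRα-/- chow. In WT HFD it had 6.77, 5.43, 5.45, 4.38 and 4.77 FPKM, and in LXRα-/- HFD 5.61, 6.0, 4.30, 5.78 and 6.06 FPKM. Each WT chow library lay above all 15 others, and the other 3 groups overlapped. Slc27a4 was 2.60-fold lower in LXRα-/- on chow (log2 difference -1.38, SE 0.20, adjusted p = 1.96e-05) and 1.88-fold lower on HFD than on chow in WT (-0.91, SE 0.20, adjusted p = 0.00166). On HFD the genotypes differed by -0.16 (-0.56 to 0.25, adjusted p = 0.780). The interaction was 1.22 (SE 0.28, adjusted p = 0.00443), and all 3 calls were kept in each of the 20 fits without 1 library. The mitochondrial share separates the same libraries, and with it as a covariate the difference on chow was -0.35 (adjusted p = 0.984), in a fit that called 0 of 18905 genes on chow. With the clock level as a covariate the interaction was 0.97 (adjusted p = 0.213) and the difference between diets in WT was -0.72 (adjusted p = 0.149).

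Slc27a1, the transporter FATP1, which is best known in muscle and fat, did not pass in any comparison. Its FPKM were 1.48, 0.699, 0.924, 1.64 and 1.65 in WT chow and 1.48, 0.769, 0.771, 0.962 and 1.73 in WT HFD. They were 1.28, 1.09, 1.27, 1.05 and 0.514 in LXRα-/- chow and 1.38, 1.3, 0.977, 2.62 and 1.42 in LXRα-/- HFD. The 4 groups overlapped, and library 4 of LXRα-/- HFD was the highest of all 20. The log2 differences were -0.35 between genotypes on chow (-1.03 to 0.33, adjusted p = 0.409) and 0.22 on HFD (-0.46 to 0.90, adjusted p = 0.819).

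Vldlr encodes a receptor for triacylglycerol-rich lipoproteins and was close to absent in WT chow. Its counts there were 4, 15, 14, 11 and 8, against 102, 345, 657, 90 and 59 in LXRα-/- chow. HFD libraries held 68, 135, 101, 193 and 252 counts in WT and 162, 194, 173, 271 and 248 in LXRα-/-. All 5 WT chow libraries lay below the other 15, and the other 3 groups overlapped. In units of length the highest library had 0.603 FPKM, so the gene stayed at a low level throughout. Vldlr was 21.7-fold higher in LXRα-/- on chow (log2 difference 4.44, SE 0.61, adjusted p = 1.23e-05) and 15.8-fold higher on HFD than on chow in WT (3.98, SE 0.60, adjusted p = 7.12e-05). On HFD the genotypes differed by 0.29 (-0.79 to 1.37, adjusted p = 0.856), and the interaction was -4.15 (SE 0.78, adjusted p = 0.00116). These 3 calls were also kept without any 1 of the 20 libraries. On log2(FPKM + 1), a scale that understates the change of low genes, the interaction was -0.19 (limma adjusted p = 0.292) and the difference between diets in WT 0.19 (adjusted p = 0.104). On log2(FPKM + 0.1) the interaction was -0.96 (limma adjusted p = 0.140). With the mitochondrial share as a covariate the difference on chow was 4.38 (adjusted p = 0.769).

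**Figure D2:**
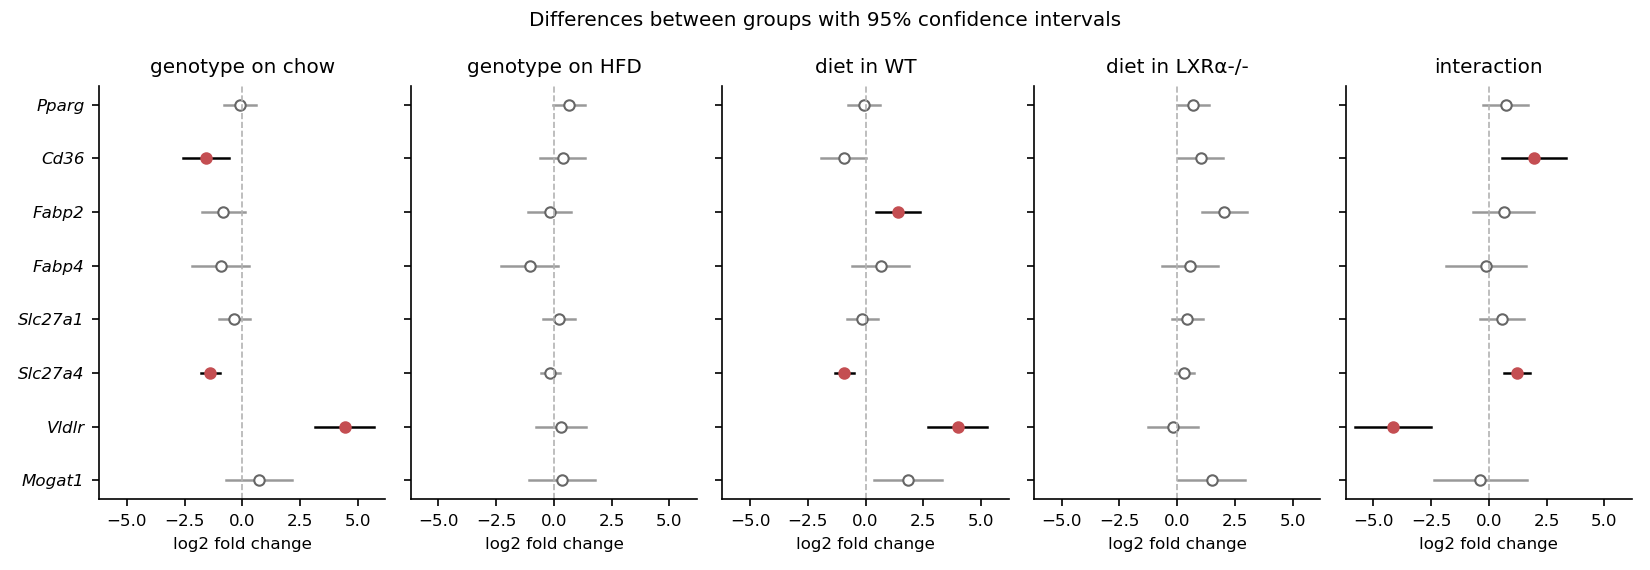
Log2 fold change of each gene (points) with its 95% confidence interval (lines) in 5 comparisons, where filled points passed an edgeR adjusted p of 0.05 over all genes tested. Vldlr, Slc27a4 and Cd36 differ between genotypes on chow and in the interaction, and no gene passes between genotypes on HFD or between diets in LXRα-/-.

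Fabp2, the intestinal fatty acid binding protein, was higher on HFD. WT libraries held 54.2, 14.3, 34.6, 9.33 and 21.7 FPKM on chow and 62.8, 69.0, 74.9, 59.4 and 67.9 FPKM on HFD. All 5 HFD libraries lay above all 5 chow libraries, and they were close to each other. The rise in WT was 2.66-fold (log2 difference 1.41, SE 0.45, edgeR adjusted p = 0.0235). That call was lost without WT chow 2 (1.25, adjusted p = 0.0598), WT chow 4 (1.21, adjusted p = 0.0585) or WT chow 5 (1.36, adjusted p = 0.0507). LXRα-/- libraries held 10.7, 15.9, 24.5, 18.3 and 6.09 FPKM on chow and 66.6, 83.9, 12.3, 79.7 and 92.8 FPKM on HFD. Library 3 of LXRα-/- HFD lay within the chow range, while the other 4 lay above it. The log2 difference in LXRα-/- was 2.05 (1.08 to 3.01) with an unadjusted p = 0.000256 and an edgeR adjusted p = 0.362. Without library 3 it was 2.32 (adjusted p = 0.0182), and DESeq2 called it with all libraries (2.04, adjusted p = 0.00359). Between genotypes Fabp2 differed by -0.82 on chow (-1.75 to 0.12, adjusted p = 0.149) and by -0.18 on HFD (-1.10 to 0.75, adjusted p = 0.904).

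Enterocytes are the usual source of Fabp2. Their defining genes Alpi and Sis had 0 counts in all 20 libraries, and Lct, Cdh17 and Rbp2 had 0 counts in 19 of them. Of the 10 enterocyte markers only Lgals4 and Slc5a1 had counts in every library, Lgals4 with a median of 11.2 FPKM and Slc5a1 with 0.131 FPKM. The summed markers were 1.72 to 8.17 FPKM in WT chow and 6.0 to 14.0 FPKM in WT HFD. They were 10.3 to 20.7 FPKM in LXRα-/- chow and 11.1 to 23.9 FPKM in LXRα-/- HFD.

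Fabp4, the binding protein of fat cells, endothelial cells and macrophages, passed in no comparison, and 1 library decided its largest value. Its FPKM were 1.60, 2.36, 0.501, 0.279 and 0.303 in WT chow and 4.12, 0.837, 0.772, 0.830 and 0.772 in WT HFD. LXRα-/- libraries held 0.308, 0.569, 0.849, 0.347 and 0.519 on chow and 1.06, 0.739, 0.356, 0.777 and 1.21 on HFD. The first WT HFD library stood far above the other 4 of its group, which lay between 0.772 and 0.837 FPKM. HFD against chow gave a log2 difference of 0.66 in WT (-0.57 to 1.88, adjusted p = 0.437), and -0.24 without that library. Between genotypes on HFD the difference was -1.04 (-2.27 to 0.19, adjusted p = 0.440), and -0.14 without it.

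The same library carried genes of fat cells. Adipoq, the hormone adiponectin, had 887 counts there and 0 to 135 in the other 19 libraries. Plin1, which coats fat cell lipid droplets, had 524 counts there and 0 to 35 elsewhere. Lep, the hormone leptin, had 171 counts against 0 to 12, and it was at 0 in 18 of the other 19. Retn, the hormone resistin, had 658 counts against 0 to 40. Of the 11 adipocyte markers, 6 were highest in this library. Cfd, Lipe and Adrb3 were present in all 20 libraries, and the summed list ran from 12.0 to 80.4 FPKM in WT HFD and from 37.4 to 317 FPKM in LXRα-/- HFD. WT chow 1 and 2 had 135 and 26 Adipoq counts and 670 and 1132 Fabp4 counts, and in WT chow 2 the recruited macrophage markers summed to 108 FPKM. The part of other cells in Fabp4 was not tested.

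**Figure D3:**
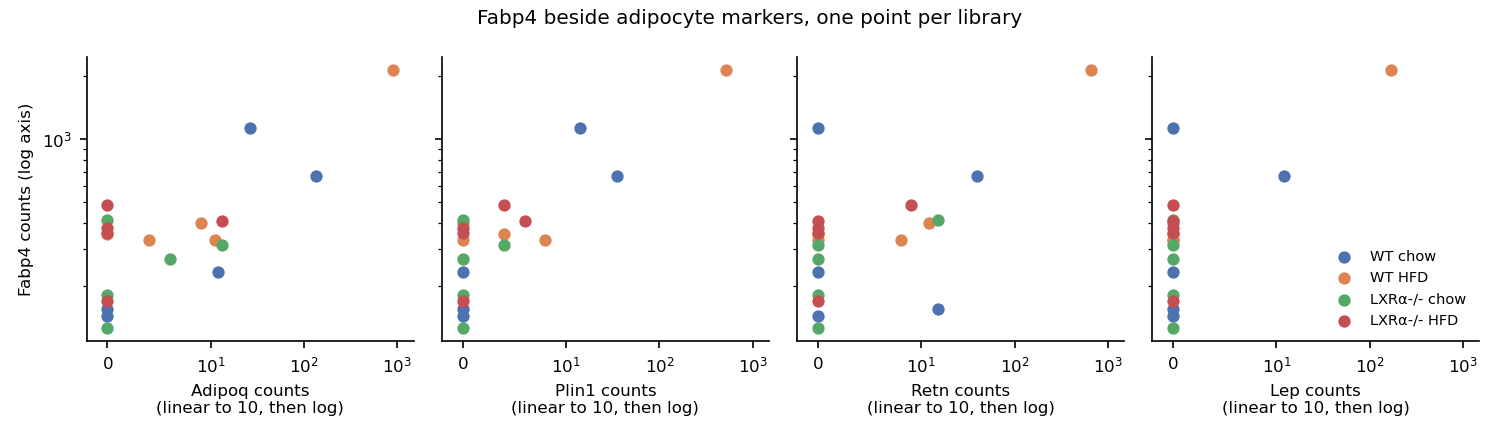
Counts of Fabp4 (log axis) against counts of 4 adipocyte markers (linear to 10, then log), 1 point per library, coloured by group. The first WT HFD library lies at the top right of each panel, with 2137 Fabp4 and 887 Adipoq counts.

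Mogat1 encodes a monoacylglycerol acyltransferase that makes diacylglycerol for triacylglycerol synthesis. It had 0.706, 0.153, 0.40, 0.488 and 1.33 FPKM in WT chow and 1.93, 4.83, 0.721, 1.17 and 1.96 FPKM in WT HFD. LXRα-/- libraries had 0.576, 0.502, 1.10, 2.60 and 0.378 FPKM on chow and 2.10, 3.24, 0.353, 4.94 and 5.37 FPKM on HFD. HFD medians were above chow medians in both genotypes, and chow and HFD libraries overlapped in both. The log2 difference between diets in WT was 1.85 (0.37 to 3.33, edgeR adjusted p = 0.0556), just outside the threshold. DESeq2 called it (1.87, adjusted p = 0.0173), as did edgeR on the 2 groups alone (1.88, adjusted p = 0.0359). Of the 20 fits without 1 library 16 did not call it, with values from 1.24 to 2.37 and adjusted p from 0.0269 to 0.208. It was called without WT chow 5, WT HFD 3, LXRα-/- chow 4 or LXRα-/- HFD 3. With the clock level as a covariate it was 4.06 (adjusted p = 0.0602). In LXRα-/- it was 1.49 (0.03 to 2.94, adjusted p = 0.729), with library 3 of HFD below all 5 chow libraries. Genotypes differed by 0.73 on chow (-0.72 to 2.17, adjusted p = 0.421) and by 0.36 on HFD (-1.06 to 1.79, adjusted p = 0.864). The gene BC035947 on the opposite strand overlaps 12.84% of the exonic length of Mogat1 in GENCODE M21. Since the strand setting of the counts is not given in the sources used here, reads of the 2 genes could be mixed.

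Library 3 of LXRα-/- HFD had the lowest FPKM of its group for each of the 8 genes. It also stood apart over all tested genes. On principal components 1 and 2 it lay at 86.8 and 39.2, near LXRα-/- chow 2 at 86.1 and 38.9. The other 4 libraries of its group lay at 31.6 to 45.6 and at -20.3 to -4.33. Its clock level was -1.28, against -5.94 or below in the other 4 libraries. In the plot of FPKM against clock level the WT HFD libraries, with clock levels up to 0.53, held Fabp2 at 59.4 FPKM or more. LXRα-/- chow 2, at a clock level of -1.38, held Fabp2 at 15.9 FPKM. With the clock level as a covariate the Fabp2 difference between diets in LXRα-/- was 1.47, against 2.05 without it. The part of the clock level in the low values of library 3 was not tested.

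**Figure D4:**
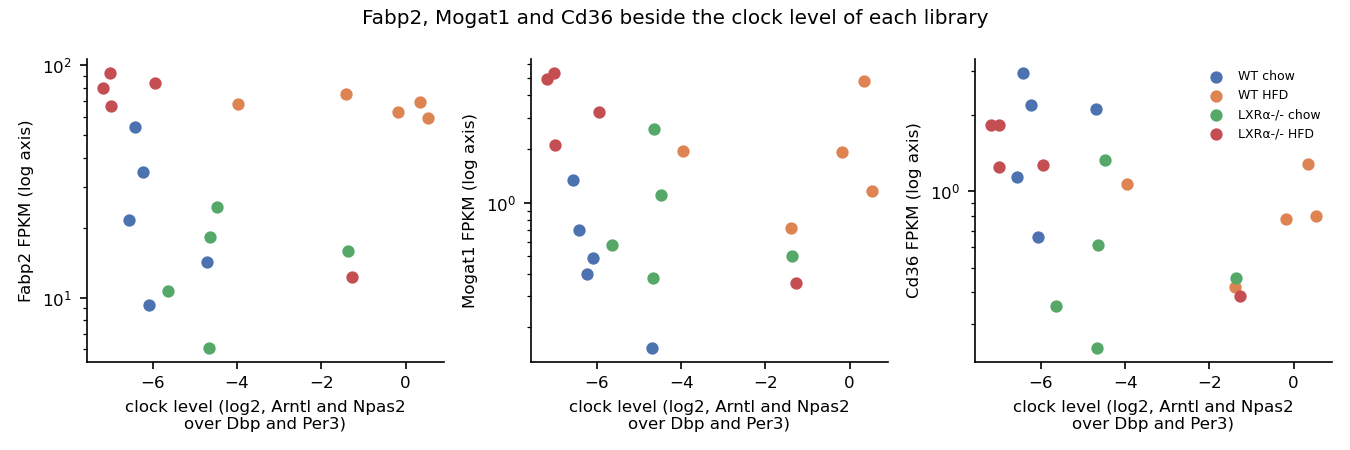
FPKM (log axis) of Fabp2, Mogat1 and Cd36 against the clock level, the log2 ratio of Arntl and Npas2 to Per3 and Dbp, 1 point per library. The LXRα-/- HFD library at a clock level of -1.28 is the lowest of its group in each panel, at 12.3, 0.353 and 0.387 FPKM, while WT HFD libraries reach clock levels of 0.53.

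Counted together, 3 of the 8 genes passed between genotypes on chow, Vldlr upward and Cd36 and Slc27a4 downward, in a comparison where 43.4% of the 18905 genes tested passed. Between genotypes on HFD, 0 of 8 passed with edgeR, with 0 at an unadjusted p under 0.05 and 0 with DESeq2 or limma. There 0.455% of all genes passed with edgeR, 14.2% had an unadjusted p under 0.05 and 533 genes passed with DESeq2. In WT, 3 of 8 differed between diets, Fabp2 and Vldlr upward and Slc27a4 downward, against 29.3% of all genes. In LXRα-/-, 0 of 8 passed between diets, with 3 at an unadjusted p under 0.05 (Cd36, Fabp2 and Mogat1), 1 with DESeq2 and 0 with limma. Of all genes, 0.0159% passed with edgeR, 6.76% had an unadjusted p under 0.05 and 66 passed with DESeq2. The interaction called 3 of 8, Cd36 and Slc27a4 upward and Vldlr downward, against 19.4% of all genes, 10.2% upward and 9.12% downward. The comparison of genotypes on chow, that of diets in WT and the interaction share the 5 WT chow libraries. The median log2 difference of the 8 genes was -0.58 on chow and 0.25 on HFD between genotypes, where the medians of all genes were 0.08 and 0.03. Between diets it was 0.30 in WT and 0.61 in LXRα-/-, where all genes had 0.02 and -0.01.

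Whether the other genes went with Pparg inside a group was examined over the 20 libraries, on log2 CPM after subtraction of each group's mean. Mogat1 had the highest correlation with Pparg (Pearson r = 0.64, permutation p = 0.00156, adjusted over 7 relations 0.0109, Spearman rho = 0.68, adjusted 0.0148). Without the 2 libraries farthest from the median of Pparg, WT HFD 2 and 3, r was 0.53 (permutation p = 0.0182). Slc27a1 gave r = 0.58 (permutation p = 0.0178, adjusted 0.0414, rho = 0.69, adjusted 0.0148) and 0.77 without those 2 libraries (p = 0.00069, permutation). These were the 2 genes whose rank correlation also passed. Cd36 gave r = 0.54 (permutation p = 0.0126, adjusted 0.0414, rho = 0.50, adjusted 0.0631), which fell to 0.39 without those 2 libraries (permutation p = 0.108) and then no longer passed. The Cd36 relation also lost its call without any 1 of 7 libraries, WT chow 1, WT HFD 2 or 3, LXRα-/- chow 3 or 5, or LXRα-/- HFD 3 or 4 (adjusted permutation p from 0.0511 to 0.0904). Fabp2 gave r = 0.37 (permutation p = 0.0274, adjusted 0.0479, rho = 0.45, adjusted 0.0603) and 0.47 without WT HFD 2 and 3 (permutation p = 0.0391). The Slc27a1 relation also lost its call in some fits without 1 library, in more of them than Cd36 (adjusted permutation p up to 0.0917). That of Fabp2 was lost in most of the 20 such fits (adjusted permutation p up to 0.162). Slc27a4 (r = 0.20, adjusted permutation p = 0.480), Vldlr (r = 0.27, 0.40) and Fabp4 (r = 0.11, 0.731) did not pass. Leaving out single libraries left between 1 and 4 of the 7 relations past the threshold, and Mogat1 was past it in every such fit. It was the 1 relation left without WT chow 1, WT HFD 3, LXRα-/- chow 3 or 5, or LXRα-/- HFD 3 or 4, and 2 were left without WT chow 2 or 5 or WT HFD 2. Without LXRα-/- HFD 3, Mogat1 had r = 0.66 (adjusted permutation p = 0.0345). The share of all genes with such a relation to Pparg was not computed. Whether these counts are particular to the 7 genes is therefore not known.

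**Figure D5:**
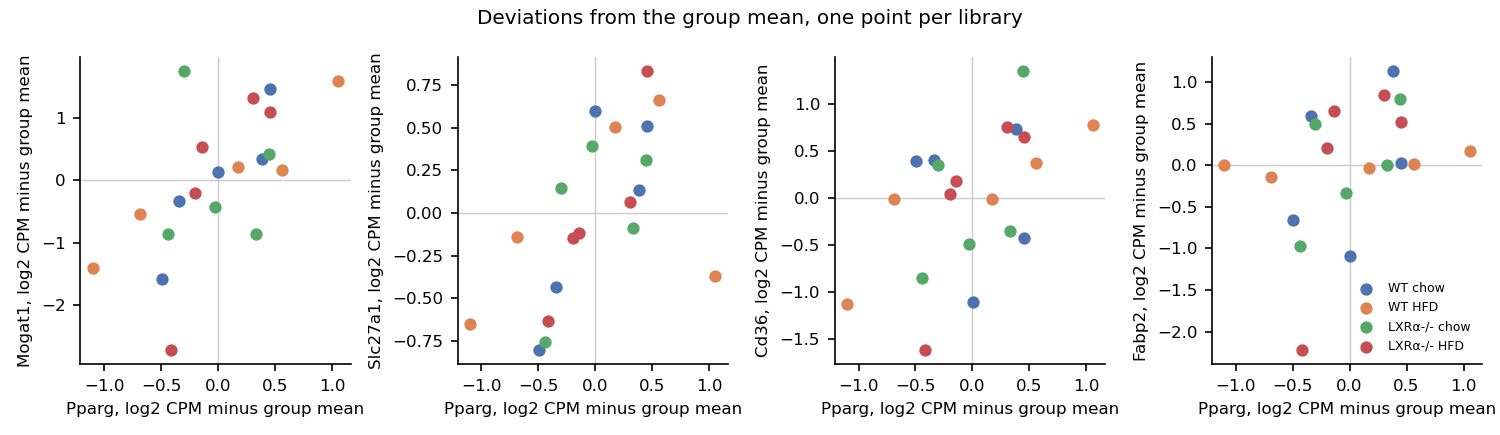
Deviation of log2 CPM from the group mean for Mogat1, Slc27a1, Cd36 and Fabp2 (vertical) against that for Pparg (horizontal), 1 point per library, coloured by group. Points rise from lower left to upper right in each panel, with r between 0.37 for Fabp2 and 0.64 for Mogat1.

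Of the other pairs among the 8 genes, Cd36 and Fabp2 were the most alike on the same measure (r = 0.80, 20 libraries, given as a description). The genes most like each of the 8 were then read off among 12670 genes with a mean of at least 1 CPM. Pparg was most like Slc47a1, a transporter of organic cations, and Pdlim2, with r = 0.82 and 0.81. Cd36 was most like Acadm, the medium-chain acyl-CoA dehydrogenase of fatty acid oxidation, and Lclat1, with r = 0.88 and 0.87. Fabp2 was closest to Elovl5, an elongase of polyunsaturated fatty acids (r = 0.95), and Gbe1, the glycogen branching enzyme (r = 0.89). Mogat1 was closest to Pex19, which is needed to build peroxisomes (r = 0.92), and Hsd17b10, a mitochondrial dehydrogenase (r = 0.91). Fabp4 was closest to Nid1, a protein of basement membranes (r = 0.88), and Dnajb9, a chaperone of the endoplasmic reticulum (r = 0.87). Slc27a4 went with Lman2 (r = 0.96) and Atp6v0d1 (r = 0.95), Slc27a1 with Aifm2 (r = 0.84) and Fmo1 (r = 0.82), and Vldlr with Abcd2 (r = 0.78) and Hamp2 (r = 0.74). All of these are the highest of 12670 values over 20 libraries that share depth and scaling.

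The wider pathway was read from 6 lists of 96 tested genes. Between genotypes on chow 48 of the 96 passed, 19 upward and 29 downward, with a median log2 difference of -0.12. Of all genes on chow 43.4% passed, 22.3% upward and 21% downward, with a median of 0.08. On HFD 2 passed, both downward, against 22 at an unadjusted p under 0.05, 9 with DESeq2 and 1 with limma, where 14.2% of all genes had an unadjusted p under 0.05. Between diets 40 passed in WT, 19 upward and 21 downward, against 29.3% of all genes, 14.3% upward and 15% downward. In LXRα-/- 0 passed between diets, with 14 at an unadjusted p under 0.05 (6.76% of all genes), 1 with DESeq2 and 0 with limma. The interaction called 25, 17 upward and 8 downward, against 19.4% of all genes. The counts of each list below are descriptions to be read against these shares, and no list was tested as a group.

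Of 16 partners and cofactors of PPARγ 8 passed on chow, 6 up and 2 down, a share near the 43.4% of all genes. Both that fell were RXR genes, Rxra with 73.2 ± 5.06 FPKM in WT chow and 27.6 ± 4.61 in LXRα-/- chow (mean ± SD, n = 5, log2 difference -1.42, SE 0.16, edgeR adjusted p = 1.24e-06) and Rxrb (-1.35, SE 0.24, adjusted p = 0.000166). Nrip1, a corepressor, rose by 2.10 (SE 0.27, adjusted p = 6.62e-06). On HFD 0 of 16 passed between genotypes, 3 at an unadjusted p under 0.05 and 0 with DESeq2 or limma, and Rxra differed by -0.15 (adjusted p = 0.720).

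Of the 11 other PPARs and regulators of Pparg, 3 passed on chow, where 43.4% of all genes passed. Ppara, the receptor that drives fatty acid oxidation in hepatocytes, was 6.41 ± 2.58 FPKM in WT chow and 1.38 ± 0.476 in LXRα-/- chow (mean ± SD, n = 5), a log2 difference of -2.24 (SE 0.27, adjusted p = 2.59e-06). Ppard rose by 1.23 (SE 0.44, adjusted p = 0.0299). Ebf1, a factor of fat and B cells, rose by 5.25 (SE 1.14, adjusted p = 0.000955) from a level of at most 0.0054 FPKM in WT chow. The 3 genes also had interactions past the threshold, 2.61 for Ppara (adjusted p = 0.000117), -2.43 for Ppard (adjusted p = 0.00954) and -4.64 for Ebf1 (adjusted p = 0.0248). In the interaction 19.4% of all genes passed.

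Among 24 other PPARγ-linked lipid genes, 12 passed on chow, 6 in each direction, where 43.4% of all genes passed. Between diets in WT 14 passed, 10 up and 4 down, where 29.3% of all genes passed, 14.3% up and 15% down. Plin2, which coats lipid droplets, was 131 ± 66.4 FPKM in WT chow, 68.4 ± 14.7 in WT HFD, 28.7 ± 7.42 in LXRα-/- chow and 54.6 ± 14.1 in LXRα-/- HFD (mean ± SD, n = 5). It fell by 2.18 (log2, SE 0.28, adjusted p = 6.06e-06) between genotypes on chow and by 0.85 (SE 0.27, adjusted p = 0.0228) between diets in WT. Plin5, a second droplet protein, fell by 1.94 (SE 0.24, adjusted p = 3.21e-06) and Me1, the malic enzyme that supplies NADPH for lipid synthesis, by 4.03 (SE 0.53, adjusted p = 7.10e-06) on chow. On HFD 0 of 24 passed between genotypes, with 8 at an unadjusted p under 0.05 (14.2% of all genes), 4 with DESeq2 and 0 with limma.

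Of 13 other fatty acid transport and binding genes 7 passed on chow, 6 down and 1 up, where 43.4% of all genes passed, 21% downward. Fabp5 was 50.6 ± 22.7 FPKM in WT chow, 4.68 ± 3.81 in WT HFD, 0.774 ± 0.429 in LXRα-/- chow and 0.908 ± 0.551 in LXRα-/- HFD (mean ± SD, n = 5). Fabp5 was the 1 gene of this list called on HFD (log2 difference -2.53, SE 0.56, adjusted p = 0.05), at the edge of the threshold. On HFD DESeq2 called 1 gene of the list and limma 0, and fits without 1 library called 0 to 1. Acsl5, an acyl-CoA synthetase, fell by 1.87 on chow (SE 0.28, adjusted p = 3.16e-05), and Slc27a5, the liver's own FATP, by 1.35 (SE 0.26, adjusted p = 0.00028).

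Of 17 lipoprotein and scavenger receptor genes 11 passed on chow, 9 down and 2 up, where 43.4% of all genes passed, 21% downward. Scarb1, the receptor for HDL, was 23.0 ± 3.78 FPKM in WT chow and 7.42 ± 0.456 in LXRα-/- chow, and 14.9 ± 3.42 and 9.52 ± 1.53 on HFD (mean ± SD, n = 5). It was lower in LXRα-/- on chow (-1.65, SE 0.17, adjusted p = 7.55e-07) and on HFD (-0.85, SE 0.17, adjusted p = 0.0318). Scarb2, a lysosomal membrane protein, fell by 1.41 (SE 0.15, adjusted p = 9.10e-07) on chow.

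Among 15 acylglycerol synthesis enzymes 7 passed on chow, 5 down and 2 up, a share near the 43.4% of all genes. Dgat2, which completes triacylglycerol, was 148 ± 51.6 FPKM in WT chow and 63.2 ± 19.3 in LXRα-/- chow (mean ± SD, n = 5), a log2 difference of -1.26 (SE 0.25, adjusted p = 0.00052). Agpat5 fell by 0.92 (SE 0.21, adjusted p = 0.00154), while Agpat1 rose by 1.23 (SE 0.22, adjusted p = 0.000147). On HFD 0 of 15 passed between genotypes, with 2 at an unadjusted p under 0.05 and 0 with DESeq2 or limma. In this comparison of genotypes on chow, the mitochondrial share separates WT chow from the other groups for every list, and its part was not tested beyond the covariate fit given above.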

How the data were processed

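Poly(A) RNA of mouse liver was sequenced in 20 libraries, 5 in each of 4 groups. The deposited table gives raw counts per gene and FPKM, scaled by the authors to gene length and depth, per the file headers, and 705798 counts of 0 are listed there at an FPKM of 0.0001. Per the submitters' processing notes, Bowtie 0.12.2, HISAT2 2.0, StringTie 1.3.0 and build mm8 are named without a role, while the file's coordinates match GRCm38. The sources used here do not give the counting program or strandedness. Counts of genes passing filterByExpr were scaled by TMM and tested with edgeR 4.0.16 (quasi-likelihood F test, 1 mean per group, all 20 libraries, R 4.3.3), with Benjamini-Hochberg adjustment over 18905 genes and a threshold of 0.05. SEs and 95% intervals follow from the F test. The interaction is the genotype difference on HFD minus that on chow. Relations with Pparg used log2 CPM (prior count 2) and 100000 permutations within groups. Alternatives were DESeq2 1.42.0, limma 3.58.1 on log2(FPKM + 1) and log2(FPKM + 0.1), other scalings, filters and covariates, the replicate block and leaving out each library. The code was tested on simulated counts. The members and lists were chosen with earlier results of these data known. From the 6 pathway lists, the text names the 3 genes ranked first by an F test of any group difference and any gene called between genotypes on HFD, except 1 gene that is not reported here. Of the marker lists it names only genes beside a member's result, some chosen after their values were seen. P-values measure the spread between libraries, and counts and FPKM carry counting error besides.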

Additional observations from a re-analysis of the deposited data

Results flagged for a closer look

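Of 32 groups of 5 libraries checked, 3 held a library whose gap to its neighbour was more than 0.71 of the group's range, and chance gives about 1 in 20. Fabp4 was 4.12 FPKM in WT HFD 1 (gap 0.981 of the range), the library with the highest Adipoq count. Slc27a1 was 2.62 FPKM in LXRα-/- HFD 4 (gap 0.729). Slc27a4 was 4.30 FPKM in LXRα-/- HFD 3 (gap 0.746), the library with a clock level of -1.28. The part of fat cell RNA and of the clock level in these values was not tested.

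The difference between genotypes itself differed between diets for 3 genes, by the edgeR interaction over 20 libraries. It was 1.96 for Cd36 (adjusted p = 0.0437), -4.15 for Vldlr (adjusted p = 0.00116) and 1.22 for Slc27a4 (adjusted p = 0.00443). All 3 use the WT chow libraries, whose mitochondrial share was also apart.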

How the results depend on the processing

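With the mitochondrial share as a covariate, 0 of the 8 genes were called on chow, between diets in WT and in the interaction (3 in each before), and over all genes 0, 1 and 0 were called. In the interaction 1 gene was called (Vldlr) once the clock level was a covariate. DESeq2 called 1 between diets in LXRα-/- (Fabp2). Leaving out single libraries gave 3 to 3 called on chow, 0 to 0 on HFD, 2 to 4 between diets in WT, 0 to 1 in LXRα-/-, 2 to 3 in the interaction and 1 to 4 relations with Pparg. Replicate numbers did not pair the libraries, with 0 of 30 same-numbered pairs over a correlation of 0.1. With the replicate block the Cd36 interaction was 1.98 (edgeR adjusted p = 0.0815), 2 of the 8 genes were called in the interaction, and 7818, 42, 5181, 1 and 3315 of all genes were called in the 5 comparisons, against 8197, 86, 5547, 3 and 3661.

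On HFD all-gene calls between genotypes numbered 86, against 533 with DESeq2, 348 on the groups compared alone, 228 and 172 with limma, 48 without a filter, 52 and 36 with the mitochondrial and clock covariates. Between diets in LXRα-/- they numbered 3, against 66 with DESeq2, 8 and 7 with limma, 1 on the groups alone and 0 with either covariate. The clock covariate left 1967 between diets in WT and 741 in the interaction. Library totals moved the median of all genes on HFD from 0.03 to 0.23.

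Directions turned only for values that had not passed. On chow these were Fabp4 (2.28) and Slc27a1 (0.40) with the mitochondrial covariate and Pparg (0.016) with the clock covariate. On HFD they were Fabp2 (0.0042) and Slc27a4 (0.050) on library totals, Slc27a4 with limma (0.0460 on log2(FPKM + 1) and 0.0540 on log2(FPKM + 0.1)), and Cd36 (-0.58), Mogat1 (-1.96) and Slc27a1 (-0.54) with the clock covariate. Between diets in WT they were Slc27a1 (0.42) with the mitochondrial and Pparg (0.20) and Slc27a1 (0.65) with the clock covariate. In LXRα-/- they were Vldlr with the block (0.068) and limma (0.0012 and 0.17). In the interaction they were Fabp4 on library totals (0.10), Mogat1 with limma (0.093), Mogat1 (0.23) and Slc27a1 (-0.12) with the mitochondrial covariate, and Fabp2 (-1.19), Fabp4 (0.21) and Slc27a1 (-0.50) with the clock covariate. Leaving out single libraries, Fabp2 ran from -0.36 to 0.092, Slc27a1 from -0.051 to 0.40 between genotypes on HFD, Mogat1 from -0.0045 to 1.25 and Pparg from -0.21 to 0.027 on chow. Between diets in WT, Fabp4 ran from -0.24 to 1.27, Pparg from -0.39 to 0.14 and Slc27a1 from -0.32 to 0.031, and in LXRα-/- Vldlr from -0.40 to 0.63. In the interaction Fabp4 ran from -0.72 to 0.79 and Mogat1 from -0.89 to 0.37. The causes were not tested. A fit on the groups compared alone was not run for the interaction, which needs all 4. Vldlr, at 4 to 15 counts in WT chow, had the lowest counts of the 8 genes, which limits the precision of its fold.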
